A study of Mus musculus with 6 samples.

Results

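The genes described here make, store and release fat in the hepatocyte. The set holds 37 genes of fatty acid synthesis, desaturation and elongation, triglyceride assembly, lipid droplets, lipolysis, fatty acid uptake and activation, and their transcriptional control. A gene entered when its symbol in the deposited count table equalled a name on the list, and all 37 were found among the 15565 genes of the table. Each also passed the filter on low counts, which kept 13288 genes for testing.

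The libraries came from hepatocytes of 3 C57BL/6 mice, 2 months old, of the genotype Tert(CreERT2/+); R26(LSL-Tomato/+). In this genotype 1 allele of Tert, the gene of the catalytic subunit of telomerase, carries a tamoxifen-inducible Cre, and 1 Rosa26 allele carries a Cre-dependent red fluorescent reporter. Sorting split the cells of each mouse into a TERT(High) and a TERT(Low) population, giving 3 libraries per group and 1 of each group per mouse. Both groups share strain, age and genotype, the treatment protocol is empty in the labels, and the sort gate is not given in the sources used here. The cells are in bulk libraries, so that fewer cells of a type and less RNA per cell cannot be told apart.

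The libraries held 53585174 to 76164917 counts, and the 37 genes together took 0.694% to 1.47% of them. As a check of the labels, Tert had 38, 33 and 30 reads in TERT(High) hepatocytes, listed by mouse from 1 to 3. In the other population they numbered 21, 21 and 12. As CPM (counts per 1e6 counts of the library, with TMM scaling), that is 0.620, 0.545 and 0.515 against 0.286, 0.401 and 0.228, so the groups did not overlap and the labels' order holds in each mouse. All 10 markers of hepatocytes were measured, and their summed level was 116589 to 130355 CPM in TERT(High) and 108048 to 130605 CPM in TERT(Low) libraries. Alb made up the largest part of the sum and lay wholly above in TERT(High), at 83330 ± 6153 against 62650 ± 12102 CPM (SD, n = 3 each). TERT(High) lay wholly below for Ttr, Apoa1 and Asgr1. Of the 10, 4 had a positive and 6 a negative log2 fold change of TERT(High) over TERT(Low). Asgr1 was called by edgeR as lower in TERT(High) (adjusted p = 0.0485). DESeq2 and limma-voom each called 3 as lower, where they called 23.7% and 18.6% of all genes in both directions.

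Lipogenesis turns surplus carbohydrate into fat. Citrate exported from mitochondria is split by ATP citrate lyase, acetyl-CoA is carboxylated by the acetyl-CoA carboxylases, and fatty acid synthase builds palmitate, which elongases and desaturases modify. Acyl-CoA is then joined stepwise to glycerol, the lipins and DGAT enzymes complete the triglyceride, and perilipins and CIDE proteins coat the droplet that stores it. In the liver the transcription factors SREBP-1c and ChREBP, the latter encoded by Mlxipl, drive many of these genes after feeding.

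Promoter windows from RefSeq (GRCm38.p6) were matched by symbol for 32 of the 37 genes, with 44 windows of 250 bases before to 50 after a start. They were searched on both strands for letters bound by known regulators of lipid genes. The SREBP-type letters TCACNCCAC were found in 1.24% of all 32851 windows and in windows of Acsl1 and Mlxipl, the E-box CACGTG in 7.15% of all windows and in windows of Elovl5, Lipe, Lpin2, Mgll, Mlxipl and Plin2, and the pentamer CCAAT in 37.4% of all windows and 38.6% of those of the set. The direct repeat of AGGNCA with any 1 base between its copies, the form that PPAR and HNF4 proteins bind, occurred in 0.381% of all windows and, within the set, in that of Fabp1. A match is a description of the letters and not a bound site. The 180 bases before a start are shown for 5 genes that the results return to, 5′ to 3′ on the gene's strand, with matches to any of these motifs in capitals (neighbouring CCAAT matches on opposite strands can touch). Fabp1, the most abundant gene of the set, is shown at chr6:71199699-71199878 (+), Fasn at chr11:120824548-120824727 (-), Mlxipl at chr5:135089710-135089889 (+), Lpin1 at chr12:16610967-16611146 (-) and G0s2 at chr1:193273189-193273368 (-). The starts used for Fasn and Lpin1 lie within the annotated span of the gene.
Fabp1: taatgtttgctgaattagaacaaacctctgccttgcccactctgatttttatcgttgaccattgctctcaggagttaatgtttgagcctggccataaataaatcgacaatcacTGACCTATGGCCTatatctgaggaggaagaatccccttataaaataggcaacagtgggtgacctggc
Fasn: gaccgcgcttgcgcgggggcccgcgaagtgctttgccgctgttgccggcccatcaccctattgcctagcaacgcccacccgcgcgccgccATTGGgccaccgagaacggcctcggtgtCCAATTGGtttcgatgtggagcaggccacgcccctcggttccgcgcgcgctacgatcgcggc
Mlxipl: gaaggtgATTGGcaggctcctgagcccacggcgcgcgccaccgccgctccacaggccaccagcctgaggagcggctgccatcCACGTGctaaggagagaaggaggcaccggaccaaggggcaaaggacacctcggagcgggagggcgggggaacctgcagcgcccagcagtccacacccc
Lpin1: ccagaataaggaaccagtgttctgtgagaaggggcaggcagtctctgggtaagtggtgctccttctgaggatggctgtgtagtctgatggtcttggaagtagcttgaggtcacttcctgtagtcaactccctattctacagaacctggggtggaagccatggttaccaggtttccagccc
G0s2: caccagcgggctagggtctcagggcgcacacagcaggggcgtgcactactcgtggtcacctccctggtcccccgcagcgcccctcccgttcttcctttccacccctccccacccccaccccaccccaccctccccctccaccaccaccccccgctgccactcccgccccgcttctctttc
Fabp1 has the direct repeat and Fasn several CCAAT matches close together, Mlxipl has an E-box and a CCAAT match, and the stretches of Lpin1 and G0s2 have none of the letters searched.

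Per kilobase of transcript, the set ran over 4 orders of magnitude. Fabp1, the liver fatty acid binding protein, led with a mean of 6303 CPM per kb over the 6 libraries. Thrsp, the lipogenic protein Spot 14, followed at 404 CPM per kb and Scd1, the stearoyl-CoA desaturase that makes oleate, at 297 CPM per kb. Dgat2 came next at 171 CPM per kb, and the lowest was Cidec at 0.466 CPM per kb, a droplet fusion protein best known from fat cells.

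None of the 37 genes passed the test between the groups, edgeR's quasi-likelihood test at a Benjamini-Hochberg adjusted p under 0.05 over all tested genes, which called 8.14% of all genes. Unadjusted p was under 0.05 for 8 of the 37 (21.6%), against 28.7% of all genes tested. Of these 8, Lpin1, Acaca, Acsl4, Mlxipl, Lpin2 and Scd1 had a higher mean in TERT(High) cells (6 of 37, against 16.3% of all genes), and G0s2 and Dgat1 a lower one (2 of 37, against 12.4%). DESeq2 called the same 8 at adjusted p under 0.05, against 23.7% of all genes, and limma-voom called 5 of them (Dgat1, G0s2, Scd1, Acsl4 and Lpin2), against 18.6% of all genes. With the mouse as a block edgeR called Scd1 (adjusted p = 0.0482), against 9.72% of all genes. An adjusted p under 0.10 was reached by 7 of the 8, all but Mlxipl, against 19.3% of all genes, and 5 genes (Dgat1, G0s2, Lpin1, Lpin2 and Acsl4) passed 0.05 when genes of low counts were removed more strictly, against 18.7% of 10191 genes. Of all 37, 21 had a positive and 16 a negative log2 fold change of TERT(High) over TERT(Low), with a median of 0.04 beside -0.01 over all genes tested. Groups did not overlap for 10 of the 37 (27%), against 33.4% of all genes, 6 with TERT(High) above (17.5% of all genes) and 4 below (15.9%). By each of these counts the share of the set was near or below that of all genes. It was above with DESeq2 and the mouse as a block, which called 13 of the 37 (35.1%, against 27% of all genes). The same held in the authors' deposited table, with 14 of the 37 (37.8%, against 29.2%).

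**Figure D1:**
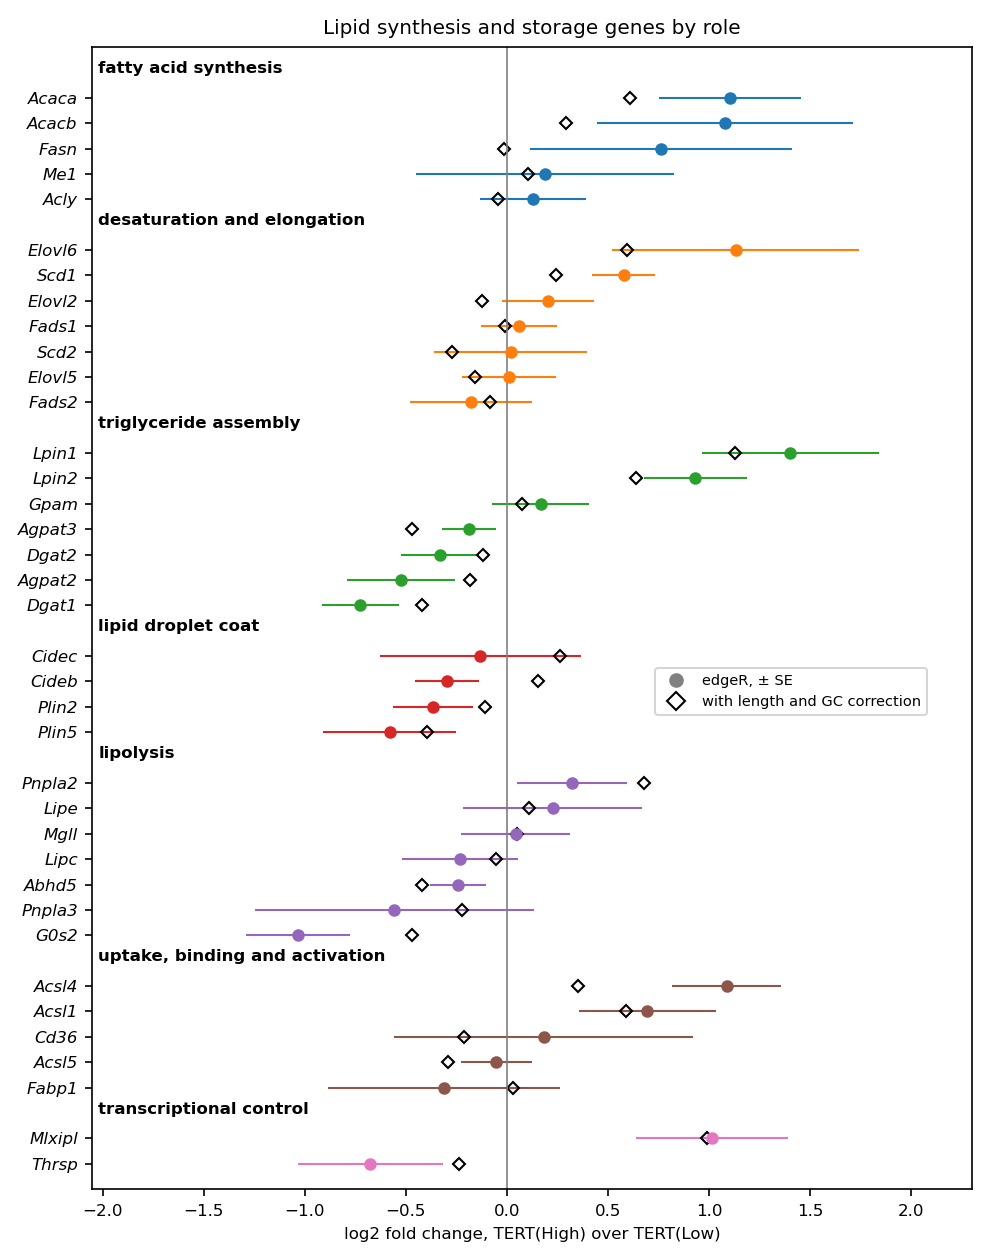
Log2 fold change of TERT(High) over TERT(Low) (x axis) for each of the 37 genes, grouped by role. Filled points are edgeR values with bars of ± 1 SE (3 libraries per group), open diamonds the values after correction for transcript length and GC content. The 5 fatty acid synthesis genes lie right of 0 and the 4 droplet coat genes left of it before correction.

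All 5 genes that supply and run fatty acid synthesis had a positive log2 fold change, from 0.13 to 1.11 with a median of 0.76, and none passed the test. Acaca, acetyl-CoA carboxylase alpha, which makes the malonyl-CoA for synthesis (chr11:84129635-84401651), stood at 74.9, 58.5 and 79.5 CPM in TERT(High) cells (mouse 1 to 3, the order kept throughout) and at 50.2, 29.4 and 19.3 CPM in TERT(Low) cells. The groups did not overlap, at 71.0 ± 11.1 against 33.0 ± 15.8 CPM (SD, n = 3 each), which is 1.11 on the log2 scale (SE 0.35, adjusted p = 0.0956). The gap between the libraries of a mouse ran from 0.57 log2 in mouse 1 to 2.02 in mouse 3.

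Acacb, the isoform at the mitochondrial surface whose malonyl-CoA restrains fatty acid oxidation, was measured at 13.2, 52.2 and 50.4 CPM in TERT(High) and 12.4, 32.2 and 10.3 CPM in TERT(Low) libraries. Both libraries of mouse 1 were low and the groups overlapped (log2 fold change 1.08, SE 0.63, adjusted p = 0.319). Fasn, fatty acid synthase, had 387, 240 and 796 CPM in TERT(High) and 315, 436 and 88.0 CPM in TERT(Low) cells. The order differed between mice, with per-mouse log2 differences of 0.30, -0.86 and 3.17, and the fitted value was 0.76 (SE 0.65, adjusted p = 0.497). Leaving out both libraries of mouse 3 turned it to -0.26. Acly, ATP citrate lyase, likewise overlapped, at 201 ± 14.7 against 184 ± 63.6 CPM (log2 fold change 0.13, SE 0.26), as did Me1, the malic enzyme that supplies NADPH, at 0.19 (SE 0.64).

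Among the 7 desaturases and elongases, 6 had a positive log2 fold change, the median was 0.06, and none passed the test. With each library corrected for transcript length and GC content, 2 of the 7 (Elovl6 and Scd1) were positive and the median was -0.085. Scd1 (chr19:44394450-44407709) was the most even of the larger differences. Its levels were 1876, 1544 and 1740 CPM in TERT(High) and 1263, 1084 and 1113 CPM in TERT(Low) libraries, so each TERT(High) library lay above all TERT(Low) ones. The means of 1720.0 ± 167 and 1153 ± 96.1 CPM (SD, n = 3 each) are 1.49-fold apart, or 0.58 on the log2 scale (SE 0.15, adjusted p = 0.0641). Per-mouse log2 differences were 0.57, 0.51 and 0.64. Scd2, a close paralog from the same locus, stood at 13.4 ± 4.39 against 13.2 ± 6.00 CPM, and reads that the counting could not place between the 2 paralogs leave its low level uncertain.

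Elovl6, which extends palmitate to stearate, had 89.8, 14.2 and 50.5 CPM in TERT(High) and 31.3, 17.6 and 21.6 CPM in TERT(Low) cells. TERT(High) was above in mice 1 and 3 and below in mouse 2, and the log2 fold change of 1.13 had an SE of 0.61 (adjusted p = 0.280). The other 4 act on polyunsaturated fatty acids. Elovl2, Elovl5, Fads1 and Fads2 had log2 fold changes between -0.18 and 0.20, and their groups overlapped.

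Triglyceride assembly held differences in both directions, 3 positive and 4 negative, with a median log2 fold change of -0.19 and no gene past the test. The lipins, phosphatidic acid phosphatases that make diacylglycerol, stood higher in TERT(High) libraries. Lpin1 (chr12:16535669-16653903) was at 30.8, 77.8 and 29.9 CPM in TERT(High) and 22.5, 17.5 and 12.3 CPM in TERT(Low) cells. Mouse 2 gave the highest library and the widest gap, 2.12 log2, and the groups did not overlap. Lpin1 had the largest log2 fold change of the set, 1.40 (SE 0.44, adjusted p = 0.0918).

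Lpin2 (chr17:71183532-71249818) had 45.6, 63.9 and 48.0 CPM in TERT(High) and 36.6, 20.4 and 25.5 CPM in TERT(Low) cells, again without overlap. Its log2 fold change was 0.93 (SE 0.26, adjusted p = 0.0691). The step after the lipins belongs to the diacylglycerol acyltransferases. Dgat1 (chr15:76502012-76512021), which sits in the endoplasmic reticulum and re-esterifies fatty acids, had 22.5, 15.6 and 15.1 CPM in TERT(High) and 29.9, 29.5 and 28.6 CPM in TERT(Low) cells.

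Every TERT(High) library of Dgat1 was below every TERT(Low) one, with means of 17.7 ± 4.10 and 29.3 ± 0.676 CPM (SD, n = 3 each). The log2 fold change was -0.72 (SE 0.19, adjusted p = 0.0622). The adjusted p was 0.0224 when TERT(High) of mouse 1 was left out, where 12.1% of all genes were called. Dgat2, which is tied to newly made fatty acids, was the far more abundant of the 2, with 152 against 191 CPM per kb where Dgat1 had 9.40 against 15.5 CPM per kb. Dgat2 was lower in TERT(High) in each mouse, yet the groups overlapped (log2 fold change -0.33, SE 0.19, adjusted p = 0.317). Of the acyltransferases before the lipins, Gpam, the mitochondrial glycerol-phosphate acyltransferase, had a log2 fold change of 0.17, Agpat2 of -0.52 (SE 0.27) and Agpat3 of -0.19 (SE 0.13). Agpat3 had no overlap, at 134, 146 and 122 CPM against 146, 158 and 153 CPM, a small gap between the nearest libraries.

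**Figure D2:**
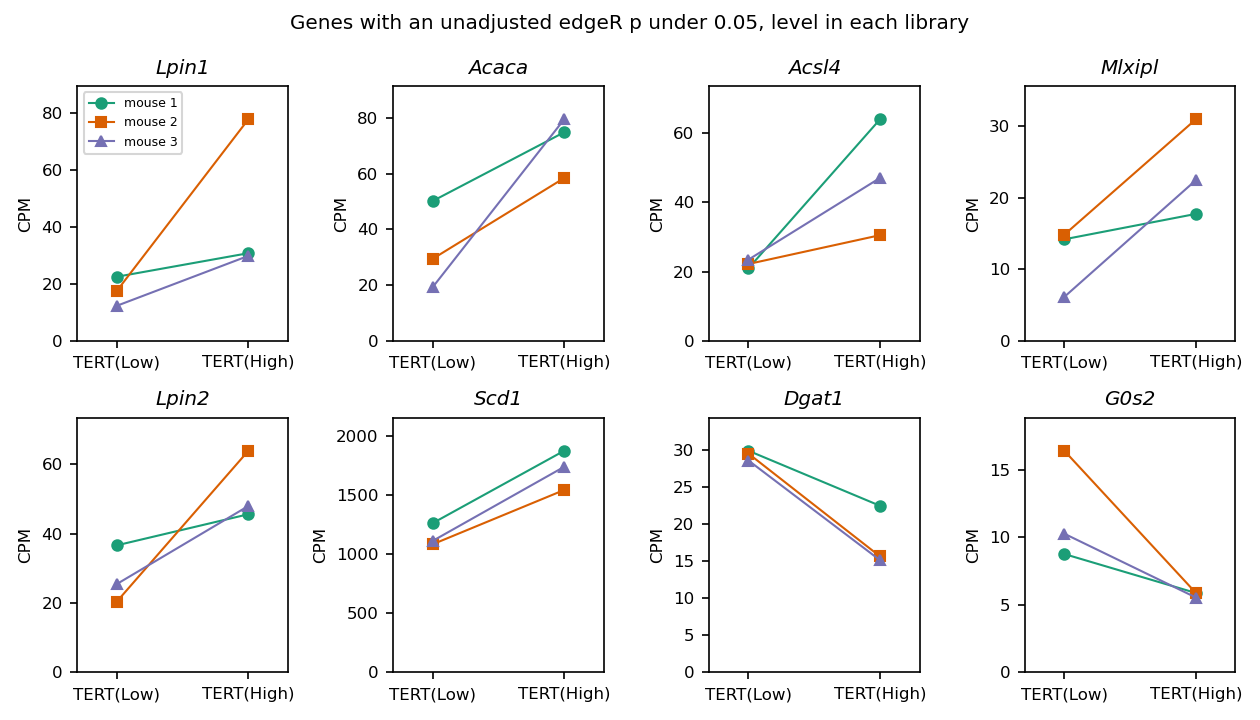
CPM (y axis, from 0) in TERT(Low) and TERT(High) libraries of the 8 genes with an unadjusted edgeR p under 0.05, 1 line and symbol per mouse. In each panel all 3 lines run the same way, upward for Lpin1, Acaca, Acsl4, Mlxipl, Lpin2 and Scd1 and downward for Dgat1 and G0s2.

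The 4 droplet coat genes all had a negative log2 fold change, with a median of -0.33, and none passed the test. Plin2, the perilipin that coats droplets of hepatocytes, was at 157, 129 and 148 CPM in TERT(High) and 221, 197 and 142 CPM in TERT(Low) cells. Mouse 3 had nearly level libraries in the opposite order, and the groups overlapped (log2 fold change -0.37, SE 0.20, adjusted p = 0.280). Plin5, which links droplets to mitochondria, had 23.3, 42.9 and 33.9 CPM against 35.4, 71.0 and 43.2 CPM. It was lower in TERT(High) in each mouse. Mouse 2 was highest in both groups, and the groups overlapped (log2 fold change -0.58, SE 0.33, adjusted p = 0.304). With the mouse as a block the edgeR SE was 0.14 (adjusted p = 0.0624), where 9.72% of all genes were called. DESeq2 with that block gave an adjusted p of 0.00437, where 27% of all genes were called. Cideb, the CIDE protein of hepatocytes, had a log2 fold change of -0.30 (SE 0.16), and Cidec stood at 0.766 ± 0.416 against 0.838 ± 0.268 CPM. With each library corrected for transcript length and GC content, Cideb turned to 0.15 and Cidec to 0.26.

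Lipolysis was mixed as well, with 3 positive and 4 negative log2 fold changes, a median of -0.23 and no gene past the test. G0s2 (chr1:193272160-193273188), an inhibitor of adipose triglyceride lipase, was at 5.88, 5.88 and 5.54 CPM in TERT(High) and 8.76, 16.4 and 10.3 CPM in TERT(Low) cells. The TERT(High) libraries hardly varied and all lay below the TERT(Low) ones, and the log2 fold change of -1.03 (SE 0.26, adjusted p = 0.0557) was the most negative of the set. Upper-quartile scaling moved it past the threshold (adjusted p = 0.0398), where 9.44% of all genes were called. Its target Pnpla2, the lipase itself, was higher in TERT(High) in each mouse with overlapping groups (log2 fold change 0.32, SE 0.27, adjusted p = 0.493). The lipase's activator Abhd5 stood at 39.8, 39.1 and 38.3 CPM against 40.9, 51.0 and 46.9 CPM, without overlap but with nearly equal libraries in mouse 1 (log2 fold change -0.24, SE 0.14, adjusted p = 0.309).

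Pnpla3, a droplet protein of the same lipase family, was scarce, at 1.16, 0.429 and 1.63 CPM in TERT(High) and 0.627, 2.90 and 1.21 CPM in TERT(Low) libraries. Its order differed between mice (log2 fold change -0.56, SE 0.69, adjusted p = 0.641). Lipe, hormone-sensitive lipase, had a log2 fold change of 0.23 (SE 0.44), Mgll, which cleaves monoacylglycerol, of 0.04 (SE 0.27), and Lipc, the secreted hepatic lipase, of -0.23 (SE 0.29), all with overlapping groups.

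Of the 5 genes of uptake, binding and activation, 3 had a positive log2 fold change, the median was 0.18, and none passed the test. Acsl4, the acyl-CoA synthetase that prefers arachidonate (chrX:142317993-142390802), had 63.9, 30.5 and 47.0 CPM in TERT(High) cells. Its TERT(Low) libraries held 20.9, 22.2 and 23.4 CPM and were nearly level. The groups did not overlap, and the log2 fold change was 1.09 (SE 0.27), with the lowest adjusted p of the set, 0.0552. Acsl1, the main acyl-CoA synthetase of the liver, was at 561, 442 and 367 CPM against 432, 212 and 202 CPM. TERT(High) was above in each mouse, but the mouse 3 library of TERT(High) was below the mouse 1 library of TERT(Low) (log2 fold change 0.69, SE 0.34, adjusted p = 0.236). Acsl5 differed by -0.05 (SE 0.17).

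Fabp1 was at 5513, 1513 and 2305 CPM in TERT(High) and 5988, 1970 and 3627 CPM in TERT(Low) cells. Both libraries of mouse 1 were highest and both of mouse 2 lowest, and TERT(High) was below in each mouse (log2 fold change -0.31, SE 0.57, adjusted p = 0.751). Cd36, the fatty acid translocase, had 50.2, 18.9 and 61.1 CPM against 31.0, 9.57 and 74.2 CPM, with mouse 2 lowest in both groups (log2 fold change 0.18, SE 0.74, adjusted p = 0.895).

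The 2 genes grouped here under transcriptional control, Mlxipl and Thrsp, went opposite ways and neither passed the test. Mlxipl (chr5:135089890-135139768) was at 17.7, 31.0 and 22.5 CPM in TERT(High) and 14.2, 14.8 and 6.15 CPM in TERT(Low) cells, without overlap. Its log2 fold change was 1.02 (SE 0.38, adjusted p = 0.134). Thrsp (chr7:97412933-97417550) had 479, 207 and 505 CPM in TERT(High) and 765, 498 and 639 CPM in TERT(Low) cells. TERT(High) was below in each mouse, with an overlap at the TERT(Low) library of mouse 2 (log2 fold change -0.68, SE 0.36, adjusted p = 0.272).

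Mice differed from each other as much as the sorted populations did for many of these genes. For 15 of the 37 (40.5%) the range of the mouse means exceeded the gap between groups in every mouse. Levels were 2-fold or more apart between mice for 6 genes, and these were Cd36 (4.86-fold), Me1 (3.82-fold), Fabp1 (3.33-fold), Elovl6 (3.29-fold), Acacb (3.13-fold) and Lipe (2.06-fold). Neither count was made over all genes, so neither is read as particular to the set. Unless another fit is named, the SE given for a gene is from the fit without the mouse. With the mouse as a block, edgeR's SE went from 0.57 to 0.15 for Fabp1 (adjusted p = 0.156). It went from 0.64 to 0.12 for Me1 (adjusted p = 0.372) and from 0.34 to 0.17 for Acsl1 (adjusted p = 0.0542). The SE grew for Fasn (0.65 to 0.85), Pnpla3 (0.69 to 0.83) and Lpin2 (0.26 to 0.28). The sign of the difference was the same in all 3 mice for 20 of the 37 (54.1%), 10 in each direction, and for 55.8% of all genes tested. The median log2 difference over the 37 genes was 0.10, -0.14 and 0.07 in mice 1, 2 and 3, where that of all genes was -0.06, 0.0063 and 0.08.

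**Figure D3:**
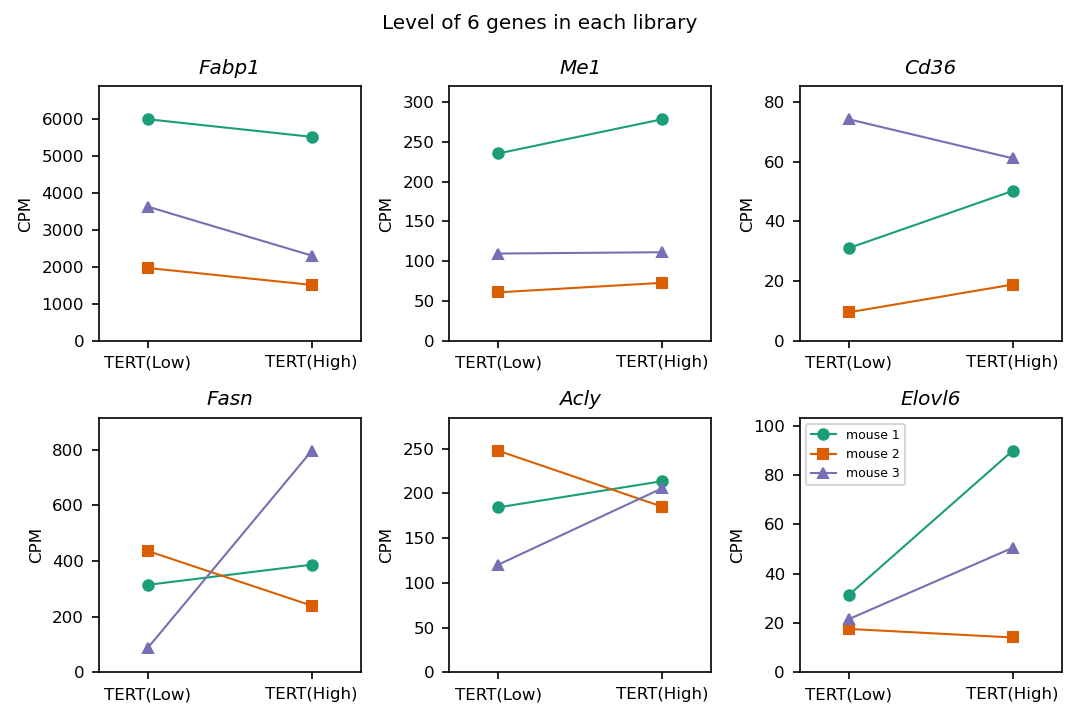
CPM (y axis, from 0) of Fabp1, Me1, Cd36, Fasn, Acly and Elovl6 in TERT(Low) and TERT(High) libraries, 1 line and symbol per mouse. Mouse 1 is highest in both groups for Fabp1 and Me1, and the lines of Fasn cross, from 88.0 to 796 CPM in mouse 3 and from 436 to 240 CPM in mouse 2.

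The other genes of these pathways were taken from 7 lists of 117 symbols that leave out the 37. Of these, 108 were found among the counted genes and 101 were tested, of which none passed in the higher and 3 in the lower direction, against 4.43% and 3.71% of all genes. Unadjusted p was under 0.05 for 14 genes on the higher side (13.9%, against 16.3% of all genes) and 9 on the lower (8.91%, against 12.4%). Of the 101, DESeq2 called 8 higher and 7 lower and limma-voom 5 and 6, where they called 23.7% and 18.6% of all genes in both directions. The median log2 fold change was -0.09, beside -0.01 over all genes. The 3 that fell in TERT(High) cells are 2 genes of the pentose phosphate pathway, a source of NADPH for lipogenesis, and a droplet protein. All 3 calls ended with scaling by library totals alone, and the count was 2 without the filter on low counts. They also ended with the length and GC correction, where the adjusted p was 0.648 for Pgls, 0.810 for Taldo1 and 0.406 for Hilpda, and when any library but TERT(High) of mouse 1 was left out, which left 0 genes of the whole table past the threshold.

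Pgls, 6-phosphogluconolactonase, stood at 36.7, 35.9 and 37.1 CPM in TERT(High) and 58.4, 74.4 and 67.2 CPM in TERT(Low) libraries, and fell by 0.86 on the log2 scale (SE 0.14, adjusted p = 0.0277). Taldo1, transaldolase, was at 92.3 ± 4.25 against 136 ± 7.03 CPM (SD, n = 3 each), and fell by 0.56 on the log2 scale (SE 0.13, adjusted p = 0.0460). Hilpda, a droplet protein that inhibits adipose triglyceride lipase as G0s2 does, was at 1.52 ± 0.117 against 3.27 ± 0.451 CPM, and fell by 1.10 on the log2 scale (SE 0.21, adjusted p = 0.0348). The groups of each of the 3 did not overlap.

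No gene of the remaining lists passed the test, among them 15 genes of synthesis supply and the elongation cycle, 13 of glycerolipid assembly, 14 lipases and esterases, 13 of uptake and binding, and 26 regulators of lipogenesis. The most abundant genes per length of the lists before the regulators were Tecr of the elongation cycle (log2 fold change -0.29, SE 0.22), Gpd1, which makes glycerol phosphate (-0.10, SE 0.31), the carboxylesterase Ces3a (-0.0042, SE 0.46) and the acyl-CoA binding protein Dbi (-0.52, SE 0.20, adjusted p = 0.142). Among the regulators an unadjusted p under 0.05 came with a higher TERT(High) mean for 6 of 26 (23.1%, against 16.3% of all genes) and with a lower one for 1 of 26 (3.85%, against 12.4%), and no direction is read from these few genes. The lower one was Mlx, the obligate partner of the Mlxipl protein, at 29.5, 33.1 and 35.4 CPM against 40.8, 67.1 and 46.7 CPM (log2 fold change -0.66). Srebf1, the gene of SREBP-1c, overlapped between groups, at 207 ± 70.9 against 248 ± 147 CPM. Like Fasn, it was higher in TERT(High) in mouse 3 (284 against 137 CPM), lower in mouse 2 (145 against 415 CPM) and closer in mouse 1 (191 in both).

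The difference between groups ran with transcript length, in the set as in the whole table. Spearman's rho of the log2 fold change with transcript length was 0.78 across the 37 genes and 0.49 across 12548 tested genes with a length, as descriptions across genes that share libraries and are not independent replicates. With coding length in place of transcript length it was 0.58 for the set. Of the 12 genes of the set under 2000 nt, 11 had a negative log2 fold change, Pnpla2 being the exception, with a median of -0.44 beside -0.40 for all 3448 such genes. Among the 9 over 5000 nt, 8 were positive and Agpat3 negative, with a median of 1.08 beside 0.67 for all 2388 such genes. The synthesis genes with large differences are long, Fasn with 10050 nt, Acaca with 9026 nt and Acacb with 8482 nt, and G0s2 (871 nt), Thrsp (1277 nt) and Dgat1 (1888 nt) are short.

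**Figure D4:**
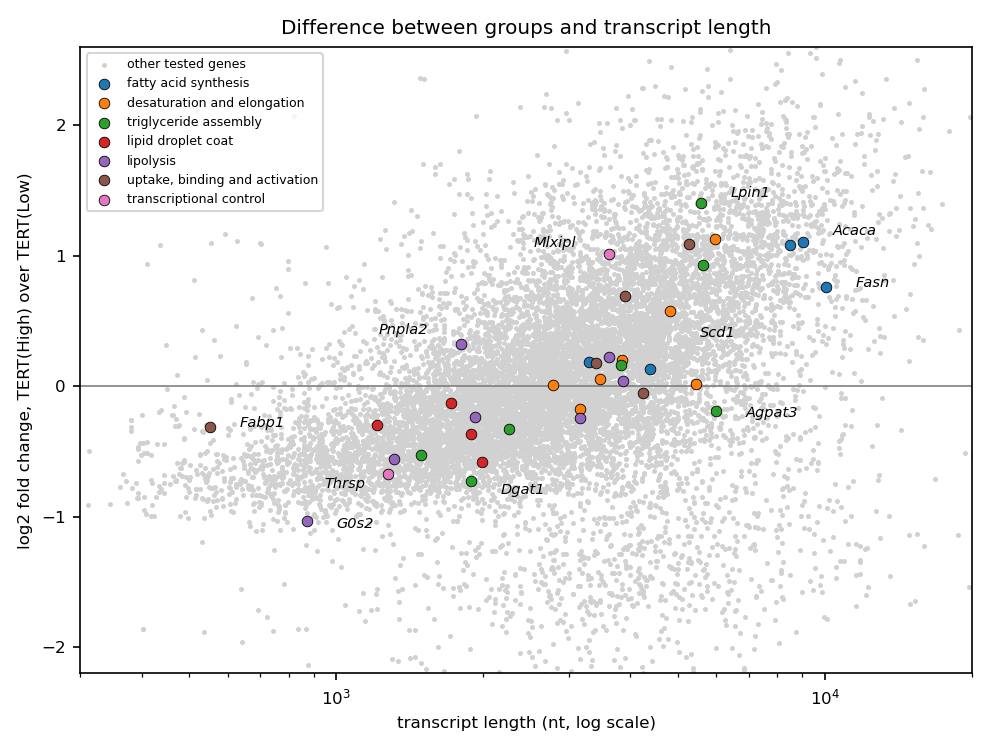
Log2 fold change of TERT(High) over TERT(Low) (y axis) against transcript length in nt (x axis, log scale), with the 37 genes coloured by role over the other tested genes in grey. Genes under 2000 nt lie mostly below 0 and those over 5000 nt mostly above, in the set as in the rest (76 of 12548 genes fall outside the axes).

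When the trend with length and GC content was removed from each library, the median of the 5 synthesis genes went from 0.76 to 0.10 that of the 7 desaturases and elongases from 0.06 to -0.085, and that of the 4 coat genes from -0.33 to 0.02. The median went from -0.19 to -0.12 for triglyceride assembly, from -0.23 to -0.055 for lipolysis and from 0.18 to 0.030 for uptake, binding and activation. For Mlxipl and Thrsp, the 2 genes grouped under transcriptional control, it rose from 0.17 to 0.38. The 8 genes with an unadjusted p under 0.05 kept their sign, and 3 of them kept such a p, with log2 fold changes of 1.13 for Lpin1, 0.64 for Lpin2 and 0.99 for Mlxipl, against 11.5% of all genes. Lpin1 and Lpin2 were smaller than before (1.40 and 0.93) and Mlxipl nearly as large (1.02). The other 5 of the 8 also came out smaller, Acaca at 0.61, Scd1 at 0.24, Acsl4 at 0.35, Dgat1 at -0.42 and G0s2 at -0.47, while Fasn came to -0.017. No gene of the table passed the adjusted threshold with this correction, where the lowest adjusted p of the set was 0.406. What part of each difference goes with length was not tested further.

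RNA of other cell types was also measured in these sorted cells. Summed endothelial markers were at 35.9 to 64.8 CPM in TERT(High) and 27.9 to 31.5 CPM in TERT(Low) libraries. The test was passed by 2 of 10 (Kdr and Lyve1, both higher), against 8.14% of all genes. TERT(High) lay wholly above for 7 of the 10 (17.5% of all genes) and wholly below for Egfl7 (15.9%), and Clec4g had a log2 fold change of -0.08. Limma-voom called 7, all higher, against 18.6% of all genes in both directions. All 12 macrophage and Kupffer cell markers had a positive log2 fold change and none passed. Their sums were 22.2, 21.1 and 116 CPM in TERT(High) and 22.8, 18.0 and 54.7 CPM in TERT(Low) libraries. The gap was thus mainly that of mouse 3, whose TERT(High) library was highest. Only 3 of the 12 markers of these cells had the same sign in all mice, against 55.8% of all genes. Such cells also express Cd36 and Acsl4, and whether their RNA has a part in the values of these 2 genes was not tested. Stellate cells store retinyl esters in droplets of their own, and their markers summed to 60.8 to 299 against 86.7 to 143 CPM. Only 2 of 6 adipocyte markers, Cfd and Fabp4, were analysed here, at a sum of 0.380 to 0.686 against 0.559 to 1.20 CPM, and so near 0 beside the levels of most of these genes. Markers of the pericentral zone, where lipogenesis is held to be more active, summed to 575 to 800.0 against 775 to 1090 CPM, and periportal ones to 6050 to 9369 against 6453 to 9407 CPM. Of the 8 pericentral markers 7 had a negative log2 fold change, with a median of -0.44, and edgeR called none. Unadjusted p was under 0.05 on the lower side for 3 of the 8, against 12.4% of all genes. TERT(High) lay wholly below for 2, against 15.9%. Of the 8 periportal markers 7 were negative as well, at a median of -0.05 and with no such p. The part of zone in the lipid genes was not tested. Neutrophil markers summed to 5.35 to 14.8 against 4.85 to 11.6 CPM, sums in which Cxcr2 (3.25 ± 0.915 against 6.72 ± 3.21 CPM) weighs most. The other 6 of the 7 tested neutrophil markers had a positive log2 fold change, the median of the 7 was 2.12, TERT(High) lay wholly above for 5 (S100a9, Csf3r, Ngp, Camp and Ltf), edgeR called none and DESeq2 called 2. Each of these 6 had a mean under 2 CPM in both groups, and their part in the differences of the lipid genes was not tested. The remaining lists, given as sums in TERT(High) and TERT(Low) libraries, were cholangiocytes (2.13 to 11.7 and 2.21 to 3.32 CPM), lymphocytes (0.132 to 0.703 and 0.0681 to 0.626 CPM) and red cells (17.5 to 206 and 39.8 to 61.0 CPM). No lymphocyte marker passed the filter, so none was tested. Of the others 2 cholangiocyte and 5 red cell markers were tested, and none passed.

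The authors' deposited table calls 14 of the 37 genes at adjusted p under 0.05 (37.8%), against 29.2% of its 10858 genes. The 14 include the 8 with an unadjusted edgeR p under 0.05, with 9 higher and 5 lower in TERT(High). Beside these 8, the authors' deposited table calls Acacb, Elovl6 and Acsl1 (higher) and Agpat2, Plin5 and Thrsp (lower). The authors' deposited table gives Acsl1 a log2 fold change of 0.71 (adjusted p = 0.0012) and Thrsp one of -0.73 (adjusted p = 0.00263), beside 0.69 and -0.68 from edgeR. For Fasn the authors' deposited table gives -0.05 (adjusted p = 0.926), where edgeR's fit gave 0.76. Its fold changes were compared with 2 DESeq2 fits with shrinkage, and lie nearer to the one with the mouse as a block. The median absolute difference over genes was 0.011 with that block and 0.021 without it. For Fasn DESeq2 with the block and no shrinkage gave 0.77. DESeq2 with that block called 13 of the 37, all among the 14, against 27% of all genes.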

How the data were processed

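RNA of sorted hepatocytes was sequenced in 6 libraries made with a stranded mRNA kit, per the labels' protocols. Trim Galore 0.4.0, TopHat2 2.0.13, DESeq2 and the build mm10 were used, per the submitters' processing notes, while for the read counter, its strand setting and gene models the entry is "not given in the sources used here", so overlapping and antisense genes are uncertain. As deposited, the counts are raw and whole, 1 row per gene. The authors' table gives, per the file headers, a mean normalized count as a signal (baseMean), the log2 fold change with its error, the fold as a ratio, a test score, and the p-value and adjusted p-value. Its direction was read from the counts.

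Genes were filtered with filterByExpr and tested with edgeR 4.0.16 in R 4.3.3 (TMM, robust quasi-likelihood, group alone, adjusted p under 0.05 over all tested genes). The SE is the absolute log2 fold change over the square root of F. Per-mouse differences and mouse means use CPM plus 0.5. DESeq2 1.42.0, limma 3.58.1 (voom), other scalings, filters and thresholds, leaving out libraries, a mouse block, and a correction of each library for transcript length and GC content (mgcv 1.9.3) were alternatives, and scripts were tested on simulated data. The labels say that both libraries of a number come from the same mouse, and deviations from group means correlated at -0.12, 0.77 and 0.68 in mice 1, 2 and 3. The p-values of the group-only fit ignore this pairing. Libraries held 53585174 to 76164917 counts, and the biological coefficient of variation was 40.7%, or 29.6% with the mouse block.

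Lengths, known for 93.1% of genes, come from the GENCODE M21 transcript of best APPRIS class and support. Coordinates and promoters are from RefSeq GRCm38.p6, the same assembly as mm10, which matched 99.8% of genes. The 37 genes, the pathway and marker lists and the tests were chosen with earlier results of these data known. Full values are given for the 3 genes most abundant per length, the 2 with the largest change in each role and, per pathway list, up to 3 called genes or the most abundant one, and 1 gene this rule names is not reported here. Other genes given library by library (Fasn, Dgat1, Cd36, Agpat3, Abhd5, Mlx and Srebf1) were chosen after their values were seen. Python 3.11.15, pandas 2.3.3 and matplotlib 3.10.9 were also used.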

Additional observations from a re-analysis of the deposited data

How the results depend on the processing

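Counts of calls are given as higher and lower in TERT(High). Over all genes edgeR called 588 and 493, the strict filter 1111 and 799, the threshold of 0.10 1421 and 1138, limma-voom 1373 and 1104, DESeq2 1508 and 1276, DESeq2 with the mouse block (an alternative added after seeing the data) 1632 and 1473, and the length and GC correction, alone or with the block, 0 and 0. Library totals alone gave 628 and 19 and moved the median of all genes from -0.01 to 0.14, and upper-quartile scaling gave 542 and 712. For the 37 genes the counts of 0 and 0 became 3 and 2 with the strict filter (which kept 35 of them), 5 and 2 at 0.10, 3 and 2 with limma-voom, 6 and 2 with DESeq2, 8 and 5 with DESeq2 and the block, and 0 and 1 with upper-quartile scaling. For the other pathway genes 0 and 3 became 4 and 4, 6 and 6, 5 and 6, 8 and 7, 11 and 13, and 0 and 5 in that order, and 0 and 0 with library totals or the length and GC correction. The replicate block gave 1 and 0 for the 37 and 3 and 4 for the other pathway genes, and changed no call of the 37 other than Scd1. The median log2 fold change of the 37 was 0.04, and 0.20 with library totals. Leaving out libraries or mice gave 0 to 937 and 0 to 713 calls over all genes, 0 to 0 and 0 to 1 for the 37, 0 to 0 and 0 to 4 for the other pathway genes, and medians of -0.12 to 0.18. With 1 library of a group left out, 0 genes were called except without TERT(High) of mouse 1, and leaving out a whole mouse leaves 2 libraries per group.

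Signs were kept under all 22 alternatives by 19 of the 37 genes, the 8 with an unadjusted p under 0.05 among them. Log2 fold changes of opposite sign to the values in the text were, with the length and GC correction, Acly -0.044, Fasn -0.017, Scd2 -0.27, Elovl2 -0.12, Elovl5 -0.16, Fads1 -0.0087, Cidec 0.26, Cideb 0.15, Cd36 -0.21 and Fabp1 0.030, and with the replicate block as well, Scd2 -0.27, Elovl2 -0.15, Elovl5 -0.12, Cidec 0.12, Cideb 0.16, Pnpla3 0.033, Cd36 -0.0066 and Fabp1 0.075. They were Scd2 -0.0087 and Elovl5 -0.0056 with DESeq2, Scd2 -0.0093 and Elovl5 -0.0056 with its size factors in edgeR, Elovl5 -0.0090 with DESeq2 and the block, Scd2 -0.035, Elovl5 -0.033 and Mgll -0.015 with upper-quartile scaling, Fads2 0.0013, Cidec 0.041 and Acsl5 0.11 with library totals, and Me1 -0.23, Elovl5 -0.058, Pnpla3 0.061 and Mgll -0.018 with limma-voom. Leaving out libraries or mice gave ranges across 0 for Acly -0.12 to 0.47, Acsl5 -0.25 to 0.028, Cd36 -0.27 to 1.10, Cidec -0.71 to 0.16, Elovl2 -0.11 to 0.36, Elovl5 -0.21 to 0.26, Fabp1 -1.07 to 0.15, Fads1 -0.063 to 0.24, Fads2 -0.56 to 0.025, Fasn -0.26 to 1.58, Gpam -0.054 to 0.39, Lipc -0.51 to 0.096, Lipe -0.18 to 0.68, Me1 -0.61 to 0.85, Mgll -0.15 to 0.37, Pnpla3 -1.12 to 0.58 and Scd2 -0.37 to 0.46. The cause of these shifts was not tested.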
